A study of Mus musculus with 4 samples.

Results

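Genes of the circadian clock, 10 in number, were followed in sorted nephron progenitors of mouse kidney, and were taken from a deposited table of 24339 genes by their symbols. They are Arntl and Clock (activators), Per1, Per2, Per3, Cry1 and Cry2 (repressors), Nr1d1 and Nr1d2 (nuclear receptors) and Dbp (an output gene). All 10 were found, and all 10 passed a filter of a mean FPKM of at least 1, where FPKM is the fragment count scaled by transcript length and library size. The libraries came from GFP-positive mesenchymal nephron progenitors, isolated from kidney by flow sorting. The Six2TGC libraries (2) came from mice with the genotype Six2TGC transgenic, which carry a GFP-Cre fusion under Six2 control on a bacterial artificial chromosome (BAC). The Six2Cre libraries (2) came from mice with the genotype Six2 Cre/+, which carry GFP and Cre as a knock-in at one Six2 allele. Both lines therefore express Cre and GFP, and no library came from mice without them. The age is given only by the name of the deposited table, as embryonic day 18, and the labels give no clock time of collection. Nor do they state that replicates were separate animals, and the p-values accordingly measure the spread between these samples. In Six2Cre that spread may be technical. The Six2TGC replicates differed in Xist (FPKM 0.0107 and 75.7) and in the Y-linked gene Ddx3y (12.7 and 0), so they were not repeats of the same sample.

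The mammalian clock is a feedback loop of transcription. ARNTL (also called BMAL1) and CLOCK bind E-boxes together and switch on the Per, Cry, Nr1d and Dbp genes, and the PER and CRY proteins then repress that activity. NR1D1 and NR1D2 (REV-ERB alpha and beta) repress Arntl through ROR response elements, at which the ROR receptors activate it, and DBP activates genes through D-boxes. In tissues with a running clock Arntl is therefore at its highest when Dbp, Nr1d1 and the Per genes are low, and the reverse. In rodents such rhythms are weak in fetal organs and build up around birth. Per1 and Per2 are in addition acute targets of cAMP and glucocorticoid signals. The comparison of the lines bears on whether clock phase or collection time could differ between them.

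The FPKM values summed to between 481665 and 549971 per library, and depth estimated from low values was 1.85 and 1.88 times that of Six2TGC replicate 1 in the Six2Cre libraries and 0.958 times in Six2TGC replicate 2. The sorted cells expressed the progenitor gene Six2 at FPKM 749 and 816 in Six2TGC against 545 and 533 in Six2Cre. Six3, a neighbour of Six2, had values of 107 and 106 in Six2TGC and 0 in both Six2Cre libraries. The Y-linked gene Ddx3y was detected in Six2TGC replicate 1 alone, at FPKM 12.7, with 0 listed elsewhere. The library names fall into a separate range for each line and carry no dates, so a batch difference and the line difference cannot be told apart. Tests used limma on log2(FPKM + 1) over 11917 genes, with Benjamini-Hochberg adjustment and a call at an adjusted p under 0.05. Log2 fold changes are Six2TGC over Six2Cre on that scale, given with their standard error (SE), and folds are ratios of mean FPKM.

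Arntl was lower and Per2 was higher in Six2TGC, and Per1 was slightly lower. The other 7 clock genes did not pass the test. The calls amount to 3 of 10 genes, 1 higher and 2 lower, against 24.3% of all tested genes. By direction, 10.8% of all tested genes were called higher and 13.5% lower. This balance turned under quantile normalization (1448 higher, 1347 lower) and by the authors' q-value (844 higher, 793 lower). It also turned, narrowly, without Six2Cre replicate 1. The background itself moved, from 2900 called genes to 953 without Six2Cre replicate 1, 1091 without Six2Cre replicate 2 and 1637 by the authors' q-value, while the clock genes called were 2 in each. The median log2 fold change of the 10 was -0.24, and that of all tested genes was -0.03. Libraries of the lines did not overlap for 8 of the 10 (2 higher, 6 lower), a state found for 65.9% of all tested genes, 29.5% on the higher side and 36.4% on the lower side. In bulk RNA such as this, fewer cells of a type and less RNA per cell cannot be told apart.

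**Figure D1:**
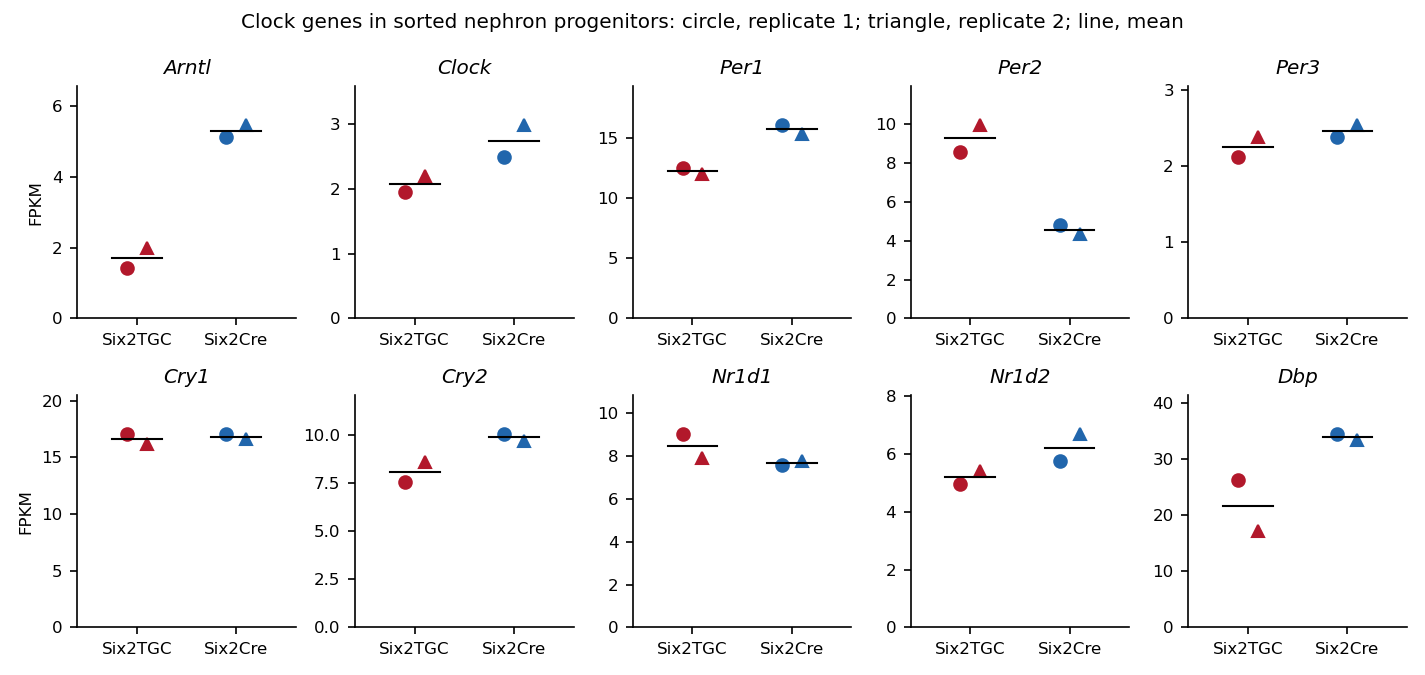
FPKM of each clock gene in the 4 libraries, with a panel per gene and its own linear axis from 0. Circles are replicate 1, triangles are replicate 2 and the line is the mean of the line's libraries; Arntl and Per2 separate widely in opposite directions, while the Cry1 and Per3 values of the lines overlap.

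Promoter windows of 4 clock genes are shown as examples that hold clock motifs in the letters around the start site. Clock, Cry2, Nr1d1 and Nr1d2 also have a window with a searched motif, not shown, and the Dbp window holds none. The windows run from 250 bases before to 50 after a RefSeq start (GRCm38.p6) and are written 5′ to 3′ on the gene's strand. Motifs are in capitals. The Arntl window is chr7:113207261-113207560 on the plus strand, with the ROR element, AANT followed at once by AGGTCA, in capitals. The Per1 window is chr11:69098699-69098998 on the plus strand, with the E-box CACGTG and the nuclear receptor half-site AGGTCA, read on the other strand, in capitals. The Cry1 window is chr10:85185005-85185304 on the minus strand, with an E-box and, read on the other strand, the variant CACGTT in capitals. The Per3 window is chr4:151044616-151044915 on the minus strand, with the D-box TTATGTAA in capitals at both places.
Arntl: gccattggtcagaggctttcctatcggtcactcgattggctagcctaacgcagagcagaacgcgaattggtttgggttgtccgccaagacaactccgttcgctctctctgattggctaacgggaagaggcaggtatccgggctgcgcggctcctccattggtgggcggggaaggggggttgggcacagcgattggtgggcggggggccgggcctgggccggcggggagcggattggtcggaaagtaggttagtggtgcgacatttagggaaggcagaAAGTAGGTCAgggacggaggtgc
Per1: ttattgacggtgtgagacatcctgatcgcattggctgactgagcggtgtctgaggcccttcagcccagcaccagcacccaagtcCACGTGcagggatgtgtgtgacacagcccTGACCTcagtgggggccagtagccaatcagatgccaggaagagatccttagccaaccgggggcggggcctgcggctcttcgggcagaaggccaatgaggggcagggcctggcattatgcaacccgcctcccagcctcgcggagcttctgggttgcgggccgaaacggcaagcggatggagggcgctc
Cry1: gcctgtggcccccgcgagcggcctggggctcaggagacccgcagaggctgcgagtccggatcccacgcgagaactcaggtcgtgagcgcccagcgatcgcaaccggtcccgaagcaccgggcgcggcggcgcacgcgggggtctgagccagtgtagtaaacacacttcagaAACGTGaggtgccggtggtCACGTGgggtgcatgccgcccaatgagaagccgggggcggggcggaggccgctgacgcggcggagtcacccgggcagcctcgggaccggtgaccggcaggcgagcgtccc
Per3: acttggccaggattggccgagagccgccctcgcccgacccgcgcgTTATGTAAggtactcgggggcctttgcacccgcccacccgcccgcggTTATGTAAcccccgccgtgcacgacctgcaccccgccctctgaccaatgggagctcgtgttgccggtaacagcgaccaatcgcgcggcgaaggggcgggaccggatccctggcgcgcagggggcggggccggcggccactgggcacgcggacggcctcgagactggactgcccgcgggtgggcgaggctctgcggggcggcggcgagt

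Both strands were searched in windows of this length from all RefSeq starts, 32851 in number, and 9 of the 10 clock genes, all but Per2, had 13 windows between them. Shares are over the 27025 genes with at least 1 window, and a gene counts where any of its windows holds the motif. The E-box was found for 8.09% of all genes and for 2 of the 9 clock genes, beginning at position -60 from the Cry1 start and -166 from the Per1 start. The variant CACGTT was found for 5.44% of genes and for 3 of the 9 (Cry1, Cry2 and Nr1d1). The full ROR element was found for 0.259% of genes and for 1 of the 9, beginning at position 27 from the second listed Arntl start. Its 3′ letters are the half-site AGGTCA, which overlaps it there and which was found for 18.1% of genes and for 4 of the 9 (Arntl, Clock, Per1 and Nr1d2). The D-box was found for 1.11% of genes and for 1 of the 9, with copies beginning at positions -205 and -158 from the Per3 start. The cAMP response element TGACGTCA was found for 2.03% of genes and for 0 of the 9. A match describes letters only, and says nothing of binding in these cells.

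Of the activators, Arntl (chromosome 7, 113207465 to 113314126, plus strand, mm10) stood at FPKM 1.44 and 1.98 in Six2TGC against 5.15 and 5.48 in Six2Cre. Both Six2TGC values lay far below both Six2Cre values. The means were 1.71 ± 0.386 and 5.31 ± 0.236 (SD, n = 2), a 3.11-fold lower level in Six2TGC. The log2 fold change was -1.23 (SE 0.155, limma adjusted p = 0.00166), with a 95% interval of -1.59 to -0.87, and 200 of the 11917 tested genes changed as far down or further. The estimated depth gave about 32 and 42 fragments in Six2TGC against 209 and 226 in Six2Cre, so the Six2TGC levels rest on few fragments. Arntl shares 33 exon bases with the opposite-strand transcript Gm45355, which had no values under that symbol. The authors' deposited table gave q = 0.000873 for Arntl, a value it also gave for Per2, Por and Cdkn1a.

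Clock (chromosome 5, 76209868 to 76304792, minus strand), whose protein pairs with ARNTL, stood at 1.96 and 2.20 in Six2TGC against 2.50 and 2.99 in Six2Cre. The libraries did not overlap, but the difference did not pass the test (log2 fold change -0.28, SE 0.153, limma adjusted p = 0.221). Its 95% interval ran from -0.64 to 0.08. The table lists Clock at a locus shared with 4 other genes, of which Tmem165 was the only one above FPKM 1, at 61.8 and 59.8 in Six2TGC against 45.0 and 48.3 in Six2Cre. Tmem165 was higher in Six2TGC (log2 fold change 0.38, limma adjusted p = 0.0123), the opposite sign to that of Clock, and the annotation gives no exon base shared by the pair.

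Among the repressors, Per2 (chromosome 1, 91415982 to 91459324, minus strand) stood at 8.57 and 9.98 in Six2TGC against 4.79 and 4.33 in Six2Cre. Both Six2TGC libraries were well above both Six2Cre libraries. The means were 9.27 ± 0.995 and 4.56 ± 0.327 (SD, n = 2), which is 2.03-fold higher in Six2TGC. The log2 fold change was 0.88 (SE 0.125, limma adjusted p = 0.00275), with a 95% interval of 0.59 to 1.18, and 372 tested genes changed as far up or further. About 370 and 415 fragments in Six2TGC against 380 and 349 in Six2Cre lay behind these levels.

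Per1 (chromosome 11, 69095217 to 69109960, plus strand), the family member that responds fastest to outside signals, stood at 12.5 and 12.0 in Six2TGC against 16.1 and 15.4 in Six2Cre. The libraries did not overlap, and the fall was small, 1.28-fold. Its log2 fold change was -0.33 (SE 0.0902, limma adjusted p = 0.0335). The Per1 call was lost on leaving out any 1 of the 4 libraries, with adjusted p between 0.0553 and 0.209 in limma, and the authors' deposited table gave q = 0.160. Per3 (chromosome 4, 151003652 to 151044665, minus strand), a weaker repressor than its relatives, stood at 2.11 and 2.39 in Six2TGC against 2.38 and 2.54 in Six2Cre. The Per3 ranges overlapped, with a log2 fold change of -0.09 (SE 0.147, limma adjusted p = 0.688) and a 95% interval of -0.43 to 0.25. Camta1, which overlaps Per3 without sharing exon bases, stood at 9.69 and 8.23 in Six2TGC against 11.3 and 11.7 in Six2Cre (limma adjusted p = 0.0661).

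Per1 thus had a level 1.46 and 1.21 times that of Per2 in the Six2TGC libraries and 3.37 and 3.55 times in the Six2Cre libraries. This ratio within a library does not depend on scaling between libraries, and its values in the lines did not overlap.

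Cry1 (chromosome 10, 85131700 to 85185064, minus strand), the stronger of the cryptochrome repressors, stood at 17.1 and 16.2 in Six2TGC against 17.1 and 16.6 in Six2Cre. These ranges overlapped almost wholly, with a log2 fold change of -0.02 (SE 0.0866, limma adjusted p = 0.908) and a 95% interval of -0.22 to 0.19. Its sign turned, to 0.0197 without Six2TGC replicate 2 and 0.00128 without Six2Cre replicate 1. Cry2 (chromosome 2, 92403646 to 92434043, minus strand) stood at 7.58 and 8.61 in Six2TGC against 10.1 and 9.69 in Six2Cre. Its libraries did not overlap, and the difference did not pass the test (log2 fold change -0.26, SE 0.108, limma adjusted p = 0.124). Cry2 shares 295 exon bases with the opposite-strand transcript D930015M05Rik, which stood at or below 0.512 in every library.

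The nuclear receptor genes did not pass the test. Nr1d1 (chromosome 11, 98767932 to 98775333, minus strand) stood at 9.03 and 7.90 in Six2TGC against 7.59 and 7.75 in Six2Cre, with a log2 fold change of 0.12 (SE 0.112, limma adjusted p = 0.458). Nr1d2 (chromosome 14, 18204054 to 18239127, minus strand) stood at 4.97 and 5.43 in Six2TGC against 5.75 and 6.71 in Six2Cre, with a log2 fold change of -0.22 (SE 0.127, limma adjusted p = 0.251). Their 95% intervals were -0.14 to 0.39 and -0.52 to 0.08. Nr1d1 shares 263 exon bases with Thra, a thyroid hormone receptor gene on the opposite strand, which stood at 43.0 and 42.4 in Six2TGC against 36.9 and 35.8 in Six2Cre (limma adjusted p = 0.0598). The sources used here do not state whether counting used strand, so it is not known whether reads from the overlap were told apart by gene.

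Dbp (chromosome 7, 45705088 to 45710203, plus strand), a direct E-box target with a large daily swing in adult organs, stood at 26.1 and 17.2 in Six2TGC against 34.5 and 33.3 in Six2Cre. All Six2TGC values were below all Six2Cre values, but the Six2TGC libraries lay far apart, at a mean of 21.7 ± 6.36 against 33.9 ± 0.843 (SD, n = 2). The 1.56-fold lower mean did not pass the test (log2 fold change -0.65, SE 0.197, limma adjusted p = 0.0742), with a 95% interval of -1.16 to -0.14. It passed without Six2TGC replicate 1 (log2 fold change -0.94, limma adjusted p = 0.00176) and without Six2TGC replicate 2 (-0.36, 0.0297), where 1 library is assumed to vary like the other line. Without Six2Cre replicate 1 or 2 it did not pass (limma adjusted p = 0.204 and 0.180), nor by the authors' deposited table (q = 0.218). Sphk2 shares 539 exon bases with Dbp on the opposite strand and stood at 19.7 and 21.7 in Six2TGC against 23.9 and 20.1 in Six2Cre (limma adjusted p = 0.626).

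**Figure D2:**
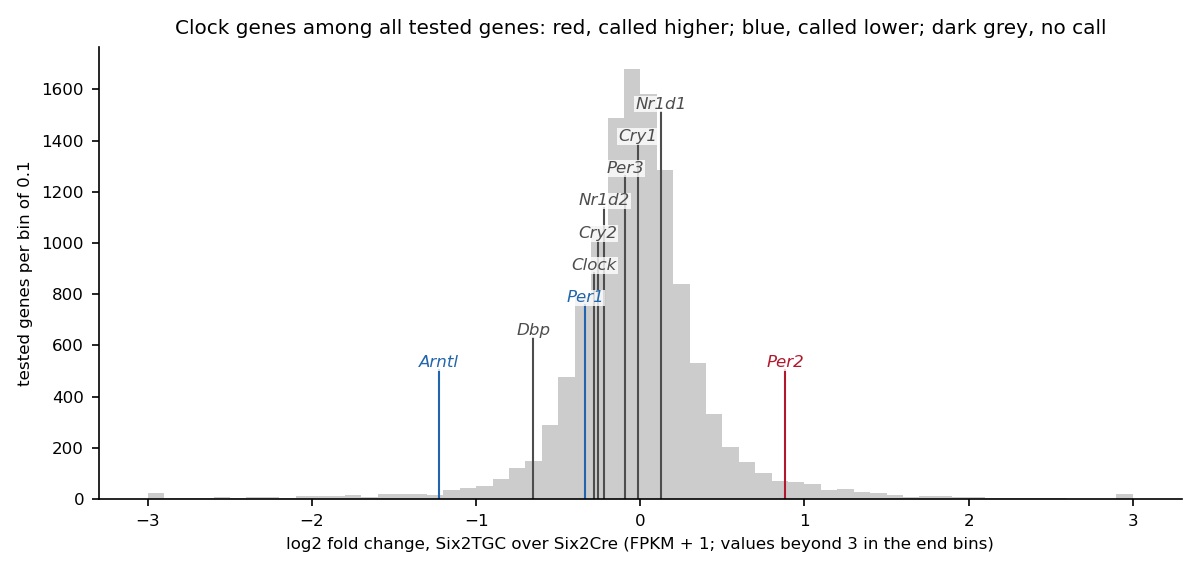
Distribution of log2 fold changes (Six2TGC over Six2Cre, FPKM + 1) over all 11917 tested genes in bins of 0.1, with a vertical line for each clock gene, whose height only separates the labels. Arntl at -1.23 lies in the lower tail and Per2 at 0.88 in the upper tail, and the other 8 lie between -0.65 and 0.12.

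In order of level per length, Dbp, Cry1 and Per1 led in both lines, and each stood above the next in both libraries of each line. Mean Dbp expression exceeded that of 71.3% of tested genes, and mean Per3 expression that of 10.2%. Below the leading genes the order differed between the lines. In Six2TGC, Per2, Nr1d1 and Cry2 followed with overlapping libraries, then Nr1d2, and last Per3, Clock and Arntl, whose neighbours in the order overlapped. In Six2Cre the order was Cry2, Nr1d1, Nr1d2, Arntl, Per2, Clock and Per3, in which Clock and Per3 alone overlapped. Arntl thus ranked 10 of the 10 in Six2TGC and 7 in Six2Cre, and Per2 ranked 4 and 8.

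Ratios within a library set the genes that ARNTL activates beside Arntl itself. The mean log2 FPKM of Dbp, Nr1d1, Nr1d2, Per1, Per2 and Per3 exceeded the log2 FPKM of Arntl by 2.48 and 1.96 in the Six2TGC libraries and by 0.65 and 0.57 in the Six2Cre libraries. The mean of those 6 genes alone lay between 2.95 and 3.03 in all 4 libraries. Without Per1 and Per2 the mean of the remaining 4 genes was 2.82 and 2.69 in Six2TGC against 2.95 and 3.03 in Six2Cre. Among these 4, the log2 fold change was 0.12 for Nr1d1 and -0.65 for Dbp. The level of Dbp was 18.2 and 8.66 times that of Arntl in Six2TGC and 6.70 and 6.07 times in Six2Cre. These means and ratios are given as descriptions and were not tested.

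**Figure D3:**
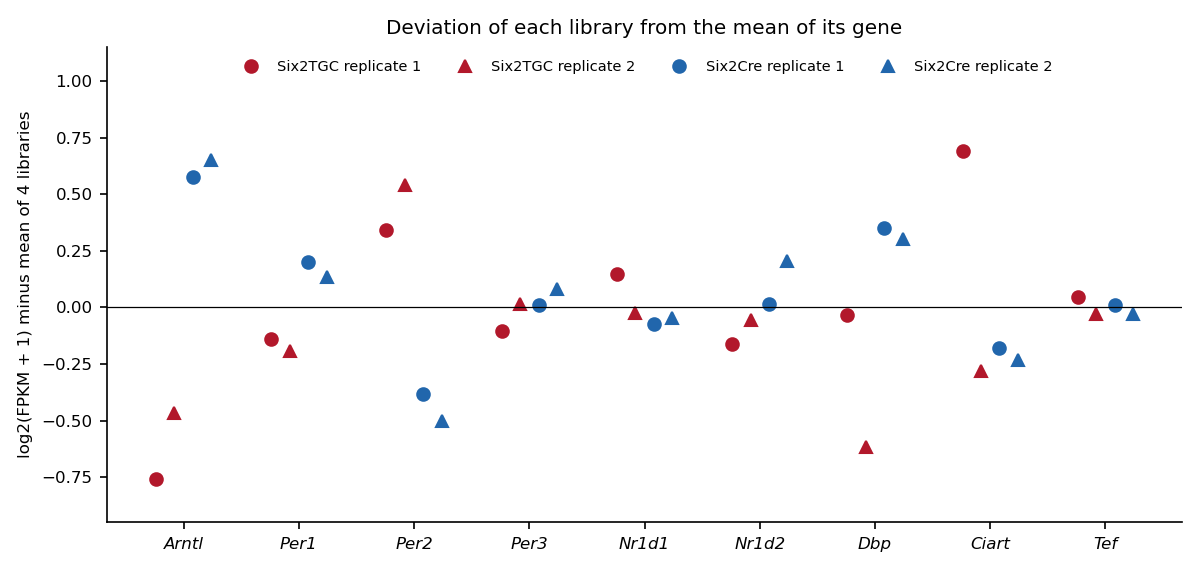
Deviation of log2(FPKM + 1) in each library from the mean of the 4 libraries, for Arntl, the genes it activates and the further clock genes Ciart and Tef (red Six2TGC, blue Six2Cre; circles replicate 1, triangles replicate 2). Arntl lies below 0 in both Six2TGC libraries and Per2 above 0, while Dbp and Ciart each have Six2TGC libraries that lie apart.

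Further clock genes were drawn from lists of loop partners, output genes and regulators. Of 43 tested, 6 were higher and 4 lower in Six2TGC, with a median log2 fold change of -0.02, and the 10 calls are close to the background share of 24.3%. Under quantile normalization the split was 8 higher and 2 lower. The count was between 4 and 7 on leaving out a library, with the lowest, 4, without either Six2Cre library.

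Of 9 loop partners tested, 1 was higher and 2 were lower, with a median of -0.17. Rora, a receptor that activates Arntl through the ROR element, stood at 3.90 and 4.21 in Six2TGC against 2.35 and 2.53 in Six2Cre (log2 fold change 0.55, limma adjusted p = 0.0246). Rora was higher and Arntl lower in Six2TGC, and a link between them was not tested. Nfil3, a repressor that competes with DBP for the D-box, was lower, at 12.3 and 11.2 in Six2TGC against 14.5 and 15.6 in Six2Cre (log2 fold change -0.33, limma adjusted p = 0.0467). Tipin, which works with Timeless at replication forks, was lower, at 31.4 and 28.9 against 45.7 and 47.0 (log2 fold change -0.60, limma adjusted p = 0.00201). The calls for Rora and Nfil3 were lost in 4 of 11 and 10 of 12 alternative settings.

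Arntl2, the paralogue of Arntl and chosen after its values were seen, was not called and stood at 1.81 and 1.71 in Six2TGC against 2.09 and 1.93 in Six2Cre (log2 fold change -0.12, limma adjusted p = 0.587). The ratio of Arntl to Arntl2 was 0.793 and 1.16 in the Six2TGC libraries and 2.46 and 2.84 in the Six2Cre libraries. Npas2, which can stand in for Clock, was named in the same way. It was too low to be tested, at 0.286 and 0.232 in Six2TGC against 0.0514 and 0.0676 in Six2Cre.

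Of 11 output genes tested, 4 were higher and 0 lower, with a median of 0.08, against 10.8% of all tested genes higher and 13.5% lower. Cdkn1a, a cell cycle inhibitor that many signals besides the clock induce, stood at 33.9 and 36.8 in Six2TGC against 12.6 and 13.1 in Six2Cre (log2 fold change 1.39, limma adjusted p = 7.79e-05). Por, which passes electrons to cytochrome P450 enzymes, stood at 95.8 and 87.4 against 50.6 and 47.1 (log2 fold change 0.89, limma adjusted p = 0.000409). Lgals3bp, a secreted glycoprotein gene (0.54), and Pfkfb3, an activator of glycolysis (0.48), were also higher, with limma adjusted p of 0.0227 and 0.0381. Calls for Cdkn1a and Por held in 12 of 12 alternative settings, and those for Lgals3bp and Pfkfb3 in 7 of 11 and 7 of 12. Tef and Hlf, the nearest relatives of Dbp and chosen after their values were seen, had log2 fold changes of 0.02 and 0.05, neither called.

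Of 23 regulators tested, 1 was higher and 2 were lower, with a median of -0.02. Csnk2b, the regulatory subunit of casein kinase 2, stood at 95.1 and 105 in Six2TGC against 153 and 144 in Six2Cre (log2 fold change -0.57, limma adjusted p = 0.00300). Gnb2l1, the older symbol of the scaffold gene Rack1, had a log2 fold change of -0.21 (limma adjusted p = 0.0244) that turned to 0.23 under quantile normalization. Crebbp, a histone acetyltransferase gene, was higher by 0.28 (limma adjusted p = 0.0428). The Crebbp call was lost in 8 of 12 alternative settings, among them leaving out any library (limma adjusted p of 0.0740 to 0.203), and the Gnb2l1 call held in the same direction in 5 of 12. Fbxl21, a ubiquitin ligase adaptor for CRY, stood at 1.19 and 1.61 in Six2TGC against 0.757 and 1.12 in Six2Cre and did not pass the test (log2 fold change 0.31, limma adjusted p = 0.279).

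**Figure D4:**
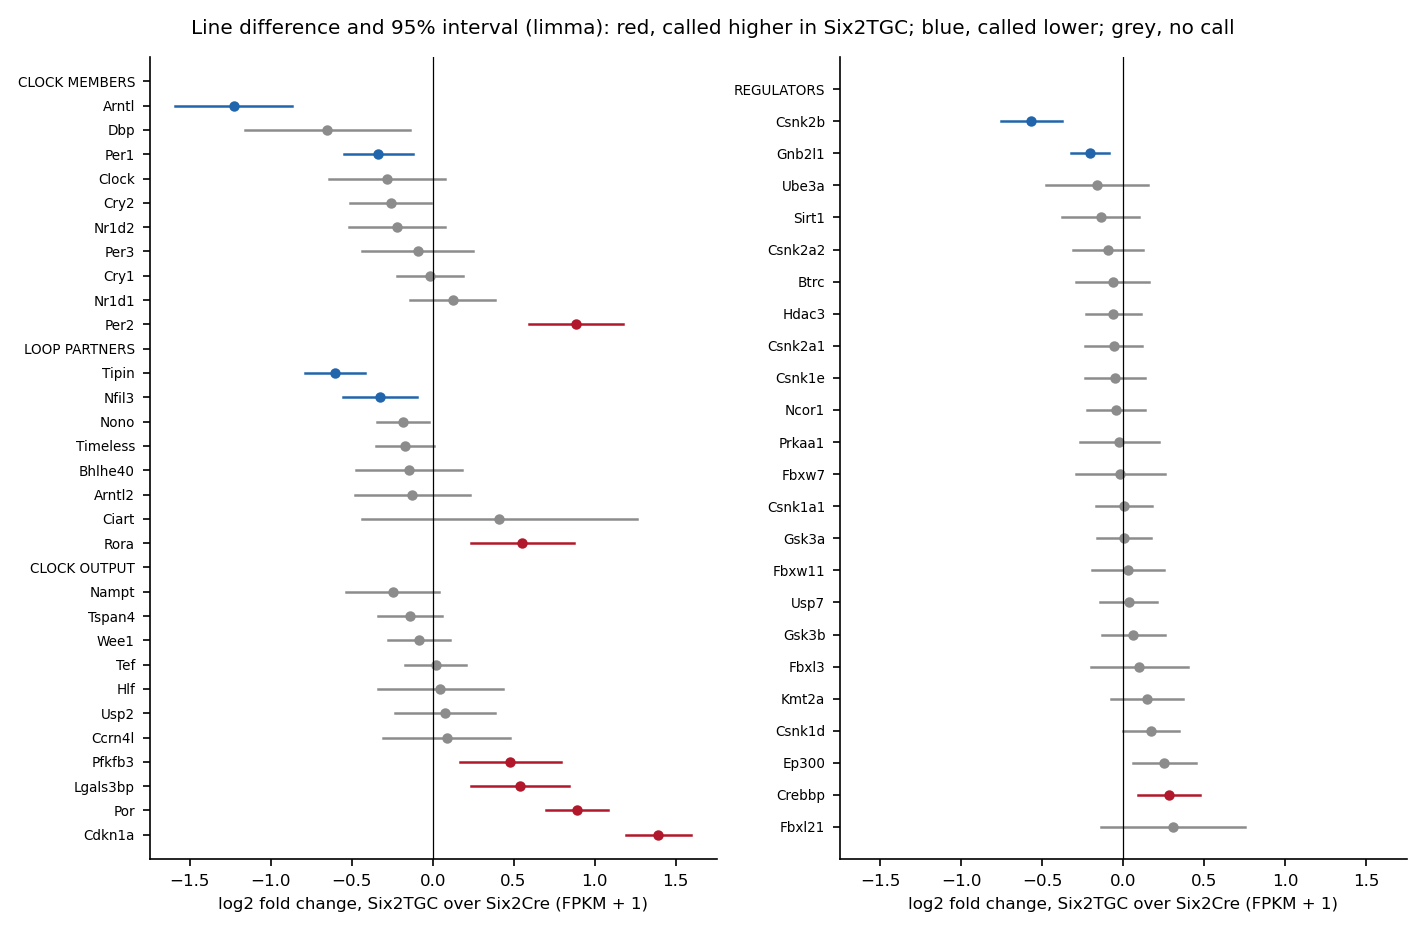
Log2 fold change (Six2TGC over Six2Cre, FPKM + 1) with its 95% interval from limma for the 10 clock genes and further clock genes of the lists. Red marks genes called higher in Six2TGC, blue genes called lower and grey genes with no call; Arntl at -1.23 and Cdkn1a at 1.39 lie farthest from 0 on either side.

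Signals that reset or mask the clock were described from gene lists, and their part in the clock gene results was not tested. Of 22 immediate early genes tested, which respond to stimuli within minutes, 1 was called higher in Six2TGC and 15 lower, at a median of -1.46. Their summed FPKM was 1558 and 1734 in Six2TGC against 5234 and 5160 in Six2Cre. Log2 fold changes were -3.65 for Egr3, -3.33 for Nr4a1, -2.82 for Egr2 and -2.79 for Btg2, each called by limma. Per1 had the same direction at -0.33 and Per2 the opposite at 0.88.

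Of 10 glucocorticoid-responsive genes tested, 3 were higher and 1 was lower, with a median of 0.07, against 10.8% and 13.5% of all tested genes, shares that every list here is read against. Ddit4 (1.03), Sgk1 (0.98) and Pdk4 (0.51) were higher, Errfi1 (-0.41) was lower, and Mt1 (0.55) did not pass the test. Tsc22d3, Fkbp5 and Klf9, further genes of the same list chosen after their values were seen, had log2 fold changes of -0.04, -0.20 and 0.06 and were not called. Of 10 temperature-responsive genes, 0 were higher and 3 lower, with a median of -0.54. The heat shock genes Dnajb1 (-1.83), Hsp90aa1 (-0.79) and Hspa8 (-0.72) were lower. Hspa1b (-2.74) and Hspa1a (-2.53) did not pass in limma, while the authors' deposited table gave q = 0.000873 for each. The Six2Cre libraries lay far apart, at FPKM 14.8 and 37.9 for Hspa1b and 7.16 and 25.6 for Hspa1a. Reads of these near-identical copies may be split between them. The cold-inducible genes Cirbp and Rbm3, which follow daily body temperature and were chosen after their values were seen, had log2 fold changes of -0.09 and -0.10, neither called.

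Cell type markers also differed between the lines, and their part in the clock gene results was not tested. Of 9 progenitor markers, Six2 (0.54) was higher and 6 were lower, from Cited1 (-3.12) and Meox1 (-1.83) to Pax2 (-0.50), Gdnf (-0.41), Wt1 (-0.36) and Eya1 (-0.29). Osr1 and Sall1 were not called, at 0.00 and 0.17, and the list summed to FPKM 1482 and 1599 in Six2TGC against 2269 and 2215 in Six2Cre. All 6 markers of early differentiating nephron were higher, with sums of 279 and 285 in Six2TGC against 79.5 and 75.7 in Six2Cre. Stromal markers, 3 of 5 tested higher, summed to 134 and 113 against 86.5 and 63.6. Ureteric bud markers, with 1 higher and 1 lower of 2 tested, summed to 29.7 and 24.4 against 35.4 and 32.1. Blood and immune markers summed to 13.7 and 12.0 against 22.4 and 23.2. Of 2 tested, Cd68 was lower, at 7.32 and 8.01 against 19.2 and 18.1, and Hba-a1 was not called (log2 fold change 0.20). Csf1r, under the filter and not tested, had a mean FPKM of 0.437 in Six2TGC against 0.129 in Six2Cre. Podocyte markers summed to 11.3 and 7.97 against 4.17 and 5.15, with 1 of 1 tested higher. None of 5 endothelial markers reached the filter, and they summed to 1.34 and 0.442 in Six2TGC against 3.40 and 4.63 in Six2Cre. Each of the 5 was lower in both Six2TGC libraries, with no test, from 2.10-fold for Emcn to 11.9-fold for Tie1. Marker genes of these lists were named after their values were seen.

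The genes whose profile over the 4 libraries was most like that of Arntl, by Euclidean distance between mean-centred log2(FPKM + 1) values, were Lhfpl1 (distance 0.0630), Fgf9 (0.0729) and Nfkbiz (0.0949). Fgf9, a growth factor gene of nephron progenitors, stood at 0.482 and 0.704 in Six2TGC against 2.73 and 2.87 in Six2Cre. Nfkbiz, an NF-kappaB cofactor gene, stood at 3.43 and 4.19 against 10.7 and 10.9, and Lhfpl1 at 0.624 and 1.06 against 3.26 and 3.59. With 4 libraries in 2 groups, this likeness is mainly that of the line difference.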

How the data were processed

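Polyadenylated RNA of sorted GFP-positive nephron progenitors was sequenced in 4 libraries, 2 per line, grouped by their titles. Per the submitters' processing notes, reads were handled with HISAT2 and Cuffdiff on mm10. The sources used here state no tool version, annotation or strand use. The table the authors deposited holds FPKM per gene and library, with p-values and q-values of their own comparison, per the file headers. No gene had the same value above 0 in any pair of libraries.

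The members and gene lists were chosen with earlier results of these data known. The test was that of limma 3.58.1 (R 4.3.3), two-sided, with robust empirical Bayes and a mean-variance trend, on log2(FPKM + 1) of the 11917 genes whose mean FPKM reached 1. The pseudocount understates changes of low genes. P-values were adjusted over all tested genes. The table holds no counts. Relative depth was taken as the most frequent ratio of low values (up to FPKM 0.4) between libraries and carries no interval. The scale in fragments was estimated separately per library, from long single-transcript genes detected in that library alone. These were few (in Six2TGC replicate 1, 9 of 23 lay in the peak), and fragments per gene assume the longest coding transcript. Alternatives were the filter, pseudocount, scaling, variance model, replicate block, the authors' q-value and leaving out each library.

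Named were all 10 clock genes, called further clock genes and the 3 largest changes per list (1 gene counted in a list is not reported here), the 4 largest changes of each signal list, genes overlapping a clock gene, progenitor markers and the 3 profiles nearest Arntl. Other genes, among them Six3, Ddx3y, Xist, Hspa8 and Errfi1, were chosen after their values were seen. Of 143 list symbols, 141 were found. Gene positions came from GENCODE M21 (GRCm38, the assembly of mm10) and promoters from RefSeq.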

Additional observations from a re-analysis of the deposited data

How the results depend on the processing

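Across 12 alternative settings the number of clock genes called was 2 to 4, and 2 to 3 on leaving out a library. Arntl was called in 11 of 11 settings that tested it (log2 fold change -1.64 to -1.08) and Per2 in 12 of 12 (0.79 to 1.02). Arntl, Clock and Per3 were not tested at a mean FPKM of at least 5. Per1 was not called with no filter (-0.33), with no trend and no robust fit (-0.33), by the authors' q-value (-0.36) or on leaving out any library (-0.37 to -0.30). Dbp was called with the replicate block (-0.65, limma adjusted p = 0.0316) and ranged from -0.94 to -0.36 on leaving out a library. Cry1 turned sign in 2 settings, at 0.0197 without Six2TGC replicate 2 and 0.00128 without Six2Cre replicate 1, and Cry1 ranged from -0.0524 to 0.0197 over the 4 fits without a library. Gnb2l1 turned to 0.23 under quantile normalization. Among further clock genes the calls were 6 with no trend and no robust fit, 6 by the authors' q-value and 4 to 7 on leaving out a library. Over all tested genes the calls were 1637 by the authors' q-value and 953 to 2736 on leaving out a library, with 953 without Six2Cre replicate 1 and 1091 without Six2Cre replicate 2. The cause of these shifts was not tested. The labels give no pairing of samples by replicate number. The replicate 1 minus 2 differences of the lines had a correlation of -0.04 over 11917 genes. With a single difference per line, this shows no common shift but cannot exclude a pairing. With the replicate block 4 clock genes and 2713 of all tested genes were called. Arntl in Six2TGC, at about 32 and 42 fragments, is the level that depth limits most.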

Other observations

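Clock genes with the largest differences between the Six2TGC libraries were looked for after their values were seen. Dbp stood at 26.1 in replicate 1 and 17.2 in replicate 2, a difference of 0.58 in log2(FPKM + 1), and 3.17% of tested genes differed as much between these libraries. Ciart, a repressor of ARNTL and CLOCK also known as Chrono, stood at 6.57 and 2.85, a difference of 0.97 that 0.881% of tested genes matched. In both cases replicate 1 was the higher library. Arntl differed by -0.29, with the lower value in replicate 1.

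The Six2Cre libraries lay close for Dbp, at 34.5 and 33.3, and for Ciart, at 3.14 and 2.99. Between the Six2TGC libraries, Per1, Nr1d1 and Tef lay closer than Dbp and Ciart did. There Per1 differed by 0.05, Nr1d1 by 0.17 and Tef by 0.07, and 75.6%, 35.8% and 67.1% of tested genes differed as much. Six2TGC replicate 1 was also the library with the lowest Xist, at FPKM 0.0107, against 75.7, 56.7 and 60.6 in the other libraries. The part of sex, collection time or handling in these differences was not tested.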
